A study of Rattus norvegicus with 10 samples.

Results

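The nuclear genes for the subunits of the mitochondrial respiratory chain and the ATP synthase were compared between distal colon epithelial cells of rats on control chow and rats on chow with bile salt. Members were all rows of the count table whose gene symbol begins with the subunit stems Ndufa, Ndufb, Ndufc, Ndufs or Ndufv and a number (complex I), Uqcr (complex III), Cox4 to Cox8 (complex IV) or Atp5 (complex V), or is Sdha, Sdhb, Sdhc or Sdhd (complex II). The rule found 84 of the 23422 genes: 37 for complex I, 4 for complex II, 8 for complex III, 18 for complex IV and 17 for complex V. It reads symbols only, so it also takes in Cox7a2l, a factor of respiratory supercomplexes, Atp5sl, which is known for complex I assembly, and Ndufa4, which is now regarded as a subunit of complex IV. Subunits with other symbols, such as Ndufab1 and Cyc1, and the 13 subunits encoded by mitochondrial DNA are outside the rule and are given separately.

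All rats were male Wistar Munich rats kept singly in metabolic cages, with 3 days of acclimatization on standard chow. Control rats stayed on standard chow, and cholate rats received the same chow with 1% w/w sodium cholate, a primary bile salt, for 10 days. Epithelial cells were released with EDTA from the everted distal segment of the colon, so each library is 1 rat and a mixture of epithelial cell types. Sequencing took the 5 rats a diet whose extracts held the most RNA (control rats 1, 2, 5, 6 and 9; cholate rats 3, 4, 7, 8 and 11), so rats were not picked at random. The labels name no batch.

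The respiratory chain passes electrons from NADH (complex I) and succinate (complex II) through ubiquinone, complex III and cytochrome c to oxygen at complex IV, and complexes I, III and IV pump protons out of the mitochondrial matrix. Complex V lets the protons back in and makes ATP. Except for complex II, each complex joins a few subunits made in the mitochondrion to many made from nuclear genes, and the nuclear genes are known to share regulators such as NRF1, GABP, YY1 and the estrogen-related receptors. Colonocytes draw much of their energy from oxidation of butyrate, which depends on this chain.

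Total counts per library ran from 14337356 to 45285762. The members took 1.96% to 2.30% of all counts in control rats and 2.63% to 3.53% in cholate rats, which did not overlap. Control rat 9 and cholate rats 8 and 11 stood apart from the other libraries by a trend with gene length, given below with the results computed without them. Expression is given in CPM, counts scaled to a common library size after trimmed mean of M values (TMM) correction. A gene is said to have risen or fallen where the edgeR quasi-likelihood F test gave a Benjamini-Hochberg adjusted p under 0.05 over the 12385 genes tested, and log2 changes are cholate over control with an approximate SE. Low counts kept 9 members out of the test: Ndufa1 (total count 12 over all libraries), Ndufa4l2 (1), Cox6a2 (9), Cox6b2 (2), Cox7a1 (57), Cox7b2 (0), Cox8b (8), Cox8c (1) and Atp5f1 (17). Several of these, Cox6a2, Cox7a1 and Cox8b among them, are the isoforms of heart and skeletal muscle, and Cox6b2, Cox7b2 and Cox8c are known from testis. Ndufa1 and Atp5f1 are not such isoforms, and both have a possible copy by product name, with 420 and 3 counts, so their levels are uncertain.

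Most subunit mRNAs were moderately higher on cholate. Of the 75 members tested, 22 rose and 0 fell, where 6.48% of all genes tested rose and 7.28% fell. The log2 change was above 0 in 74 of 75, with a median of 0.50, against -0.01 over all genes tested, and it ran from -0.08 for Atp5s to 1.32 for Cox5a. No member met the criteria of the study, an adjusted p under 0.01 and a change over 2-fold, which 3.21% of all genes tested met. In DESeq2 1 member, Cox5a, met them, where 5.89% of all genes did. At an unadjusted p under 0.05 the edgeR test counted 51 members higher and 0 lower, where 14.5% and 14.4% of all genes tested were. The 5 cholate values lay wholly above the 5 control values in 22 members and wholly below in 0, against 6.3% and 6.79% of all genes tested, and 18 of the 22 members that rose were among them. In bulk RNA, more cells of a type and more RNA per cell cannot be told apart.

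**Figure D1:**
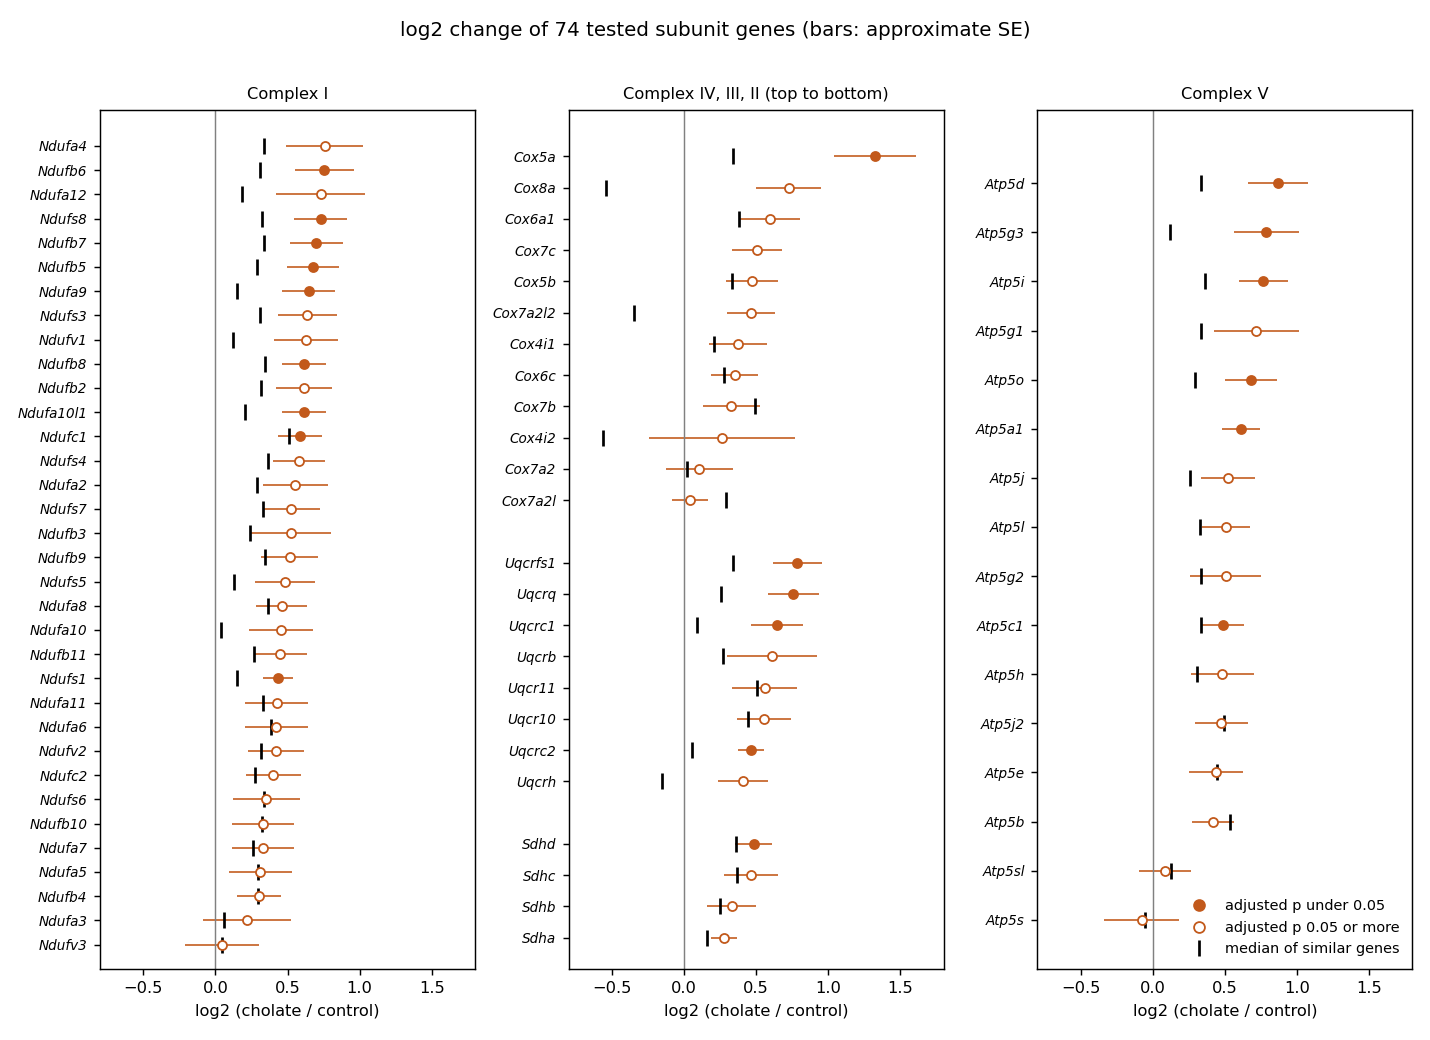
The horizontal axis gives the log2 change (cholate over control, 5 rats each) of 74 of the 75 tested members, by complex. Points are fitted changes with bars of 1 approximate SE, filled where the adjusted p was under 0.05, and black ticks are the median change of other genes of similar coding length and level, where there were any. All points but that of Atp5s lie above 0, and most lie right of their tick.

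The count of 22 moved with the rats included. Leaving out control rats 1, 2 and 6 in turn gave counts of 5, 7 and 7, when 3.32%, 3.38% and 3.69% of all genes rose, and leaving out control rat 9 gave 32, when 8.41% of all genes rose. With 1 rat left out at a time, 5 members rose in all 10 fits: Uqcrc2, Atp5a1, Cox5a, Uqcrfs1 and Atp5i. The count was 34 in DESeq2, where 9.01% of all genes rose.

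Members were not equally high in all rats of a diet. Taken as the mean over the 75 members of the log2 deviation from the control mean, control rats 1, 2, 5 and 6 lay at -0.11, -0.07, 0.08 and -0.17, and control rat 9 at 0.26. Cholate rats 3, 4 and 7 lay at 0.25, 0.19 and 0.22, and cholate rats 8 and 11 at 1.01 and 0.68. Thus control rat 9 lay above 3 of the cholate rats, and the diets overlapped. Control rat 9 was the highest control in 67 of 75 members, and cholate rat 8 the highest cholate rat in 68 of 75. The same 3 libraries stood apart over other genes: the mean level of non-member genes with a coding length up to 600 bases minus that of genes over 2400 bases was 0.58 on the log2 scale in control rat 9, 0.97 in cholate rat 8 and 0.73 in cholate rat 11, and between -0.24 and 0.07 in the other 7. With these 3 libraries left out, the median change of the members was 0.30, 69 of 75 were above 0 and 35 rose, among them all 22, when 13.6% of all genes rose.

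**Figure D2:**
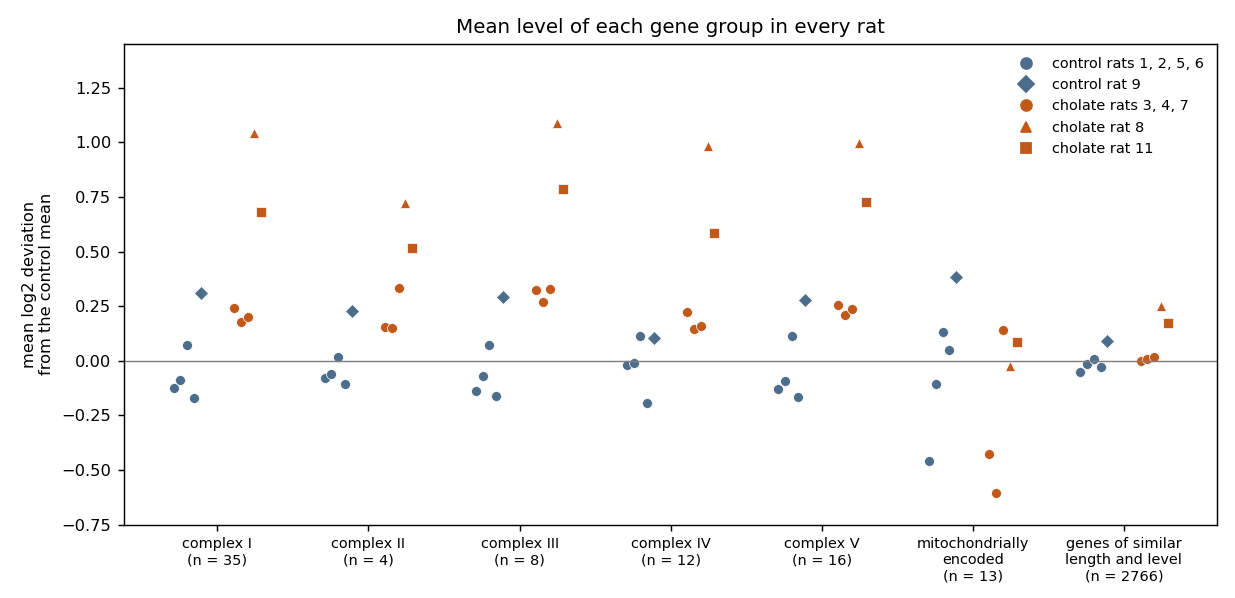
The vertical axis gives the mean log2 deviation from the control mean for the tested members of each complex, the mitochondrially encoded subunits and the genes of similar length and level, with 1 point a rat. Cholate rats 8 and 11 are the highest points in each of the 5 complexes, while cholate rats 3, 4 and 7 lie close to control rat 9 in complexes I, III and V.

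Subunit mRNAs are short and abundant, with a median coding length of 435 bases, so they were set beside other genes of similar length and level. For each member, these were all tested non-members with a coding length at most 25% longer, or shorter by the same ratio, and a mean log2 CPM within 0.5. There were 2766 such genes in all, of which 11% rose and 10.7% lay wholly above the controls, both higher shares than among all genes tested. Their number per member ran from 0 to 512, so members with many weigh most in these shares. The 2766 had a median coding length of 972 bases and a median change of 0.15. Of the 2322 non-members inside the members' 10th to 90th percentile of length and level, 12.7% rose, with a median change of 0.20. With each member counted once, the median over members of the median change of their similar genes was 0.30, against 0.50 for the members themselves. Of the 73 members with any similar gene, 65 changed more than the median of theirs, by 0.20 in the median. For 8 members there were fewer than 5 similar genes, so their comparison rests on few. Among all non-members, the median change fell with coding length, from 0.21 up to 300 bases to 0.10 at 600 to 900, -0.03 at 1200 to 1800 and -0.22 over 3600. In a fit with the length trend of each library taken out, the median change was 0.33 for members and 0.03 for all genes, and 26 members rose, among them all 22, where 8.06% of all genes rose.

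**Figure D3:**
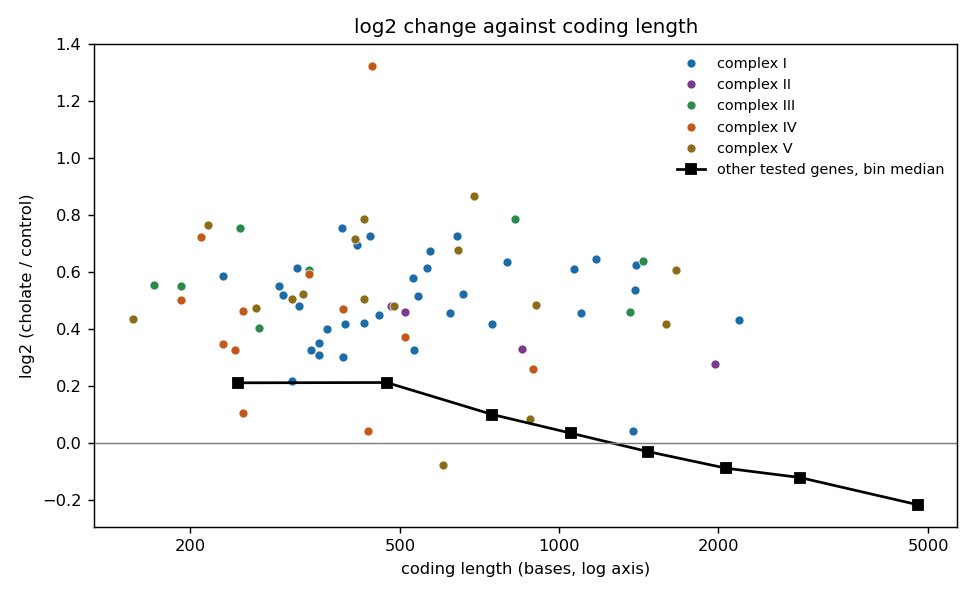
The horizontal axis gives the coding length on a log scale and the vertical axis the log2 change, for the 75 tested members (coloured by complex) and as medians of all other tested genes in 8 length classes (black squares). The squares go down from 0.21 to -0.22 with length, and most members lie above them, including members over 1200 bases.

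Complex I takes electrons from NADH. Of its 35 tested members, 10 rose and 0 fell, with a median change of 0.52, and all 35 were above 0. The 7 core subunits, which include the carriers of the flavin and the iron-sulfur clusters, had a median of 0.54, and 3 of them rose, Ndufs1 and Ndufs8 among them, beside 7 of 28 accessory subunits with a median of 0.50. Ndufs1, the largest iron-sulfur subunit of the NADH-oxidizing arm (Rnor_6.0 chr9:69919863-69953182), was at 392.4, 433.6, 399.7, 445.6 and 382.0 CPM in control rats 1, 2, 5, 6 and 9. It was at 558.0, 555.8, 643.8, 509.7 and 504.1 CPM in cholate rats 3, 4, 7, 8 and 11. The diets did not overlap, and here cholate rats 8 and 11 were the lowest of their diet and control rat 9 the lowest control. The log2 change was 0.43 (SE 0.10, edgeR adjusted p = 0.0201), and the call was lost without control rat 1 or control rat 5, with an adjusted p up to 0.0624.

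Ndufb8, an accessory subunit of the membrane arm, stood at 304.5, 300.8, 289.5, 299.99 and 342.2 CPM in the controls and at 426.4, 382.4, 377.4, 581.8 and 586.3 on cholate. All cholate values were above all controls, and the change was 0.61 (SE 0.15, edgeR adjusted p = 0.0218). Ndufs8, which holds iron-sulfur clusters on the path to ubiquinone, rose from 127 ± 20.6 to 211 ± 57.4 CPM (SD, n = 5 rats each; edgeR adjusted p = 0.0264). Ndufa10l1, by its symbol a possible copy of the accessory subunit Ndufa10, rose from 145 ± 25.1 to 222 ± 36.8 CPM (SD, n = 5 rats each, edgeR adjusted p = 0.0237). Its lowest cholate rat (180.8) lay just under control rat 9 (185.3). Ndufc1, Ndufb5, Ndufb6, Ndufb7 and Ndufa9 also rose, with changes from 0.59 to 0.76. At the other end, Ndufv3, a small subunit of the NADH-oxidizing arm, was at 51.7 ± 10.8 CPM in controls and 53.4 ± 21.0 on cholate (SD, n = 5 rats each; change 0.04, edgeR adjusted p = 0.935), and its sign turned with library size alone as scaling. Ndufa4 had a change as large as that of Ndufb6, 0.76, but with a wider spread (SE 0.27, edgeR adjusted p = 0.0872). The count of 10 became 0, 1, 6 and 1 when control rats 1, 2, 5 and 6 were left out in turn.

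Complex II, succinate dehydrogenase, is built from nuclear genes alone and is also an enzyme of the tricarboxylic acid cycle. Its 4 members were all higher, with a median change of 0.40, and 1 rose. Sdhd, a membrane anchor (Rnor_6.0 chr8:55028125-55037604), was at 135.2, 133.1, 137.1, 130.9 and 143.3 CPM in controls. On cholate it was at 152.6, 163.9, 192.6, 241.7 and 199.1 CPM. The diets did not overlap (change 0.48, SE 0.13, edgeR adjusted p = 0.0317), but the adjusted p was up to 0.0782 with 1 rat left out, and the call was lost without control rats 1, 2 or 6 or cholate rat 7. Sdha, the flavoprotein that oxidizes succinate, was at 602.5, 607.5, 611.1, 607.9 and 626.8 CPM in controls and at 719.1, 688.6, 763.2, 819.6 and 714.5 on cholate. Every cholate rat was thus above every control, yet the change of 0.28 (SE 0.09) missed the threshold (edgeR adjusted p = 0.0639). Sdhb, the iron-sulfur subunit, went from 284 ± 41.0 to 358 ± 87.2 CPM and Sdhc, the other anchor, from 138 ± 29.3 to 190 ± 45.4 CPM (SD, n = 5 rats each), with edgeR adjusted p of 0.229 and 0.132.

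Complex III passes electrons from ubiquinol to cytochrome c. All 8 members were higher, with a median of 0.58, and 4 rose. Uqcrc2, a core protein of the matrix side (Rnor_6.0 chr1:190555177-190585741), had the smallest adjusted p of all members. It was at 635.8, 705.9, 694.3, 682.5 and 745.3 CPM in controls and at 944.6, 908.3, 1018, 964.9 and 931.1 on cholate. The values were tight within each diet and far from overlapping, and neither cholate rat 8 nor cholate rat 11 stood out. The change was 0.46 (SE 0.09, edgeR adjusted p = 0.00858), the change with 1 rat left out ran from 0.43 to 0.48, and similar genes had a median of 0.06. Uqcrc2 overlaps Pdzd9 on the opposite strand.

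Uqcrfs1, the Rieske iron-sulfur protein, was at 299.7, 285.3, 351.9, 300.7 and 399.0 CPM in controls and at 432.1, 468.6, 509.1, 728.4 and 684.2 on cholate, with no overlap (change 0.79, SE 0.17, edgeR adjusted p = 0.0134). Uqcrq, a small subunit next to cytochrome b, rose from 183 ± 15.3 to 309 ± 89.1 CPM (SD, n = 5 rats each; edgeR adjusted p = 0.0181, lost only without control rat 1 among the 10 fits, at 0.0514). Uqcrc1, the other core protein, rose from 489 ± 79.3 to 763 ± 193 CPM (SD, n = 5 rats each; edgeR adjusted p = 0.0386), and its call was lost without control rats 1, 2 or 6 or cholate rat 11, with an adjusted p up to 0.0989. Uqcrh, the hinge protein that binds cytochrome c1, changed least, from 611 ± 66.9 to 809 ± 216 CPM (SD, n = 5 rats each; change 0.41, edgeR adjusted p = 0.149). The count of 4 for the complex was 2 without control rat 1.

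Complex IV, cytochrome c oxidase, has its catalytic centre in subunits from mitochondrial DNA, surrounded by the nuclear-encoded ones. Of its 12 tested members 1 rose, Cox5a, and the median change was 0.42. The count was 2 without cholate rat 3, and the median was 0.23 without cholate rat 8. Cox5a, a matrix-side subunit that joins early in assembly (Rnor_6.0 chr8:62298358-62309765), was at 42.7, 32.6, 37.7, 39.0 and 18.7 CPM in controls. It was at 55.2, 71.9, 65.4, 139 and 96.3 CPM on cholate. The diets did not overlap, control rat 9 was the lowest control and cholate rat 8 the highest, and the change of 1.32 (SE 0.29, edgeR adjusted p = 0.0128) was the largest of any member. Similar genes had a median of 0.34. In DESeq2 4 members of the complex rose. The change of Cox5a was 0.78 with control rat 9 and cholate rats 8 and 11 left out (edgeR adjusted p = 0.00373).

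Cox8a, the liver-type form of subunit 8, was at 511.6, 463.4, 525.6, 468.2 and 391.1 CPM in controls and at 557.6, 582.3, 611.5, 1262 and 888.1 on cholate. The diets did not overlap, but cholate rats 8 and 11 stood far above the others of their diet, and the change of 0.72 (SE 0.23) missed the threshold (edgeR adjusted p = 0.0557). Cox6a1, the liver-type form of subunit 6a, went from 483 ± 51.3 to 730 ± 251 CPM and Cox7c from 389 ± 48.7 to 552 ± 145 CPM (SD, n = 5 rats each), with edgeR adjusted p of 0.0805 and 0.0823. Cox4i1, the common form of subunit 4, was at 1871 CPM per kilobase of coding length in controls and 2423 on cholate (change 0.37, edgeR adjusted p = 0.244). Cox4i2, its lung and hypoxia-linked form, was at 0.39 and 0.46 CPM per kilobase (change 0.26, SE 0.51, edgeR adjusted p = 0.792). The common form thus made up nearly all subunit 4 mRNA on both diets. Cox7a2l, the supercomplex factor, changed least: 178.6, 198.7, 196.6, 187.5 and 232.2 CPM in controls and 188.2, 185.1, 176.7, 237.8 and 236.0 on cholate. The diets overlapped throughout (change 0.04, SE 0.12, edgeR adjusted p = 0.866), and the sign turned with library size alone as scaling.

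Complex V makes ATP. Of its 16 tested members 6 rose and 0 fell, with a median of 0.51. In the catalytic F1 head, 3 of 5 subunits rose (alpha, gamma and delta, from Atp5a1, Atp5c1 and Atp5d) and the median was 0.49. Atp5a1, the alpha subunit (Rnor_6.0 chr18:74156553-74164490), was at 1919, 2052, 2192, 2106 and 2517 CPM in controls and at 2843, 2960, 3046, 4000 and 3603 on cholate. The diets did not overlap, and the change was 0.61 (SE 0.13, edgeR adjusted p = 0.0127). Atp5d rose from 293 ± 27.1 to 536 ± 187 CPM (SD, n = 5 rats each; change 0.87, edgeR adjusted p = 0.0201, up to 0.0559 and lost without control rats 1, 2 or 6). Atp5c1 was just under the threshold (edgeR adjusted p = 0.0497), lost it in 9 of the 10 fits with 1 rat left out and overlaps Kin on the opposite strand. Atp5b, the catalytic beta subunit, went from 3132 ± 371 to 4185 ± 748 CPM (SD, n = 5 rats each; change 0.42, edgeR adjusted p = 0.0807), with the lowest cholate value (3576) under control rat 9 (3666).

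In the stalks and the membrane part, Atp5o, the protein that ties the head to the outer stalk, rose from 364 ± 50.0 to 584 ± 159 CPM (SD, n = 5 rats each; edgeR adjusted p = 0.0322, up to 0.0842 and lost without control rats 1, 2 or 6). Atp5i, the small subunit e that pairs ATP synthases, was at 323.2, 327.8, 363.7, 291.8 and 346.8 CPM in controls and at 491.7, 477.5, 432.0, 816.1 and 594.5 on cholate. Its diets did not overlap (change 0.77, SE 0.17, edgeR adjusted p = 0.0145). The genes Atp5g1, Atp5g2 and Atp5g3 encode the same mature c subunit of the proton-driven ring. Atp5g3 was the main one, at 1601 CPM per kilobase of coding length in controls and 2763 on cholate, and it rose (change 0.79, SE 0.22, edgeR adjusted p = 0.041). Its call held in 3 of the 10 fits with 1 rat left out. Atp5g1 and Atp5g2 had changes of 0.72 and 0.51 with edgeR adjusted p of 0.132 and 0.201. Atp5s, counted under complex V by its symbol alone, was the exception in direction. It was at 4.34 ± 0.68 CPM in controls and 4.14 ± 1.46 CPM on cholate (SD, n = 5 rats each). Its change was -0.08 (edgeR adjusted p = 0.887), and the sign turned without cholate rat 4. The count of 6 for the complex was 2 without control rats 1, 2 or 6, and 4 without control rat 5 or cholate rats 7, 8 or 11.

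**Figure D4:**
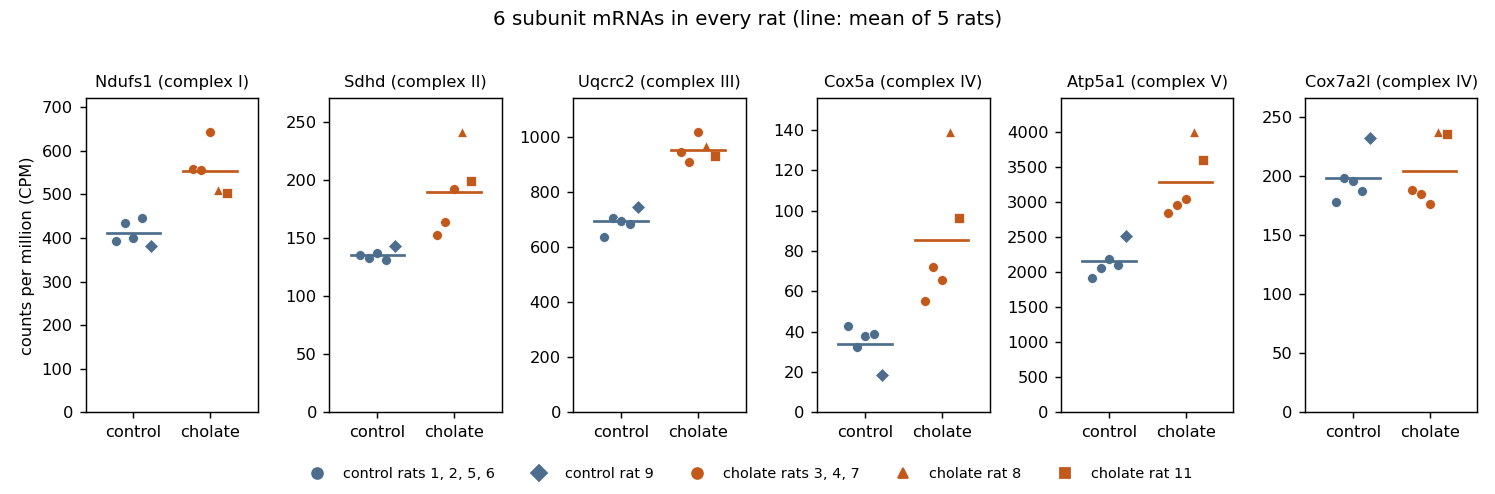
The vertical axes give CPM, each from 0, for the member with the smallest adjusted p of each complex and for Cox7a2l, with 1 point a rat and a line at the mean of 5. Ndufs1, Sdhd, Uqcrc2, Cox5a and Atp5a1 do not overlap between the diets, while Cox7a2l does (means 199 and 205 CPM).

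Because the nuclear genes of these complexes share regulators, the promoter of the leading member of each complex is shown, from RefSeq on GRCr8, 250 bases before to 50 after the start. Motif matches are in capitals. The letters searched on both strands were GCGCATGC for NRF1, CCGGAAG for ETS factors such as GABP, AAGATGG for YY1 and AAGGTCA for estrogen-related receptors.
Ndufs1 (chr9:72073556-72073855, minus strand): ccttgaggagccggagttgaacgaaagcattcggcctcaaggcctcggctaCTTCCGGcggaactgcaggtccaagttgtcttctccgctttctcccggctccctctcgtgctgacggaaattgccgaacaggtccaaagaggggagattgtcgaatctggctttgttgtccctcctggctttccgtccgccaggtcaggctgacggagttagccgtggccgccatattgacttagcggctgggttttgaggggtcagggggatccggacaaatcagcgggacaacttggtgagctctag
Sdhd (chr8:59850592-59850891, minus strand): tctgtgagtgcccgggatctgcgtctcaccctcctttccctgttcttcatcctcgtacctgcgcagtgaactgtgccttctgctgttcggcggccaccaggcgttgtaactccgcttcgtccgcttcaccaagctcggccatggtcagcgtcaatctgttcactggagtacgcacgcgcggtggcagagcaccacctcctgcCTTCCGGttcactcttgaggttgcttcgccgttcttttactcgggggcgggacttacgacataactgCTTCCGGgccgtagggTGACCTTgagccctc
Uqcrc2 (chr1:184598990-184599289, plus strand): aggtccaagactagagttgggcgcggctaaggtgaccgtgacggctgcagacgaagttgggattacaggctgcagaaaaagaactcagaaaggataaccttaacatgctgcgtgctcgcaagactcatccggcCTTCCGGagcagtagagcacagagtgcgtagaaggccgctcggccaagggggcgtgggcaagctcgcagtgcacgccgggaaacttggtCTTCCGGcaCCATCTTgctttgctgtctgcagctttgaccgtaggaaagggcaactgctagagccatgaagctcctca
Cox5a (chr8:66818034-66818333, plus strand): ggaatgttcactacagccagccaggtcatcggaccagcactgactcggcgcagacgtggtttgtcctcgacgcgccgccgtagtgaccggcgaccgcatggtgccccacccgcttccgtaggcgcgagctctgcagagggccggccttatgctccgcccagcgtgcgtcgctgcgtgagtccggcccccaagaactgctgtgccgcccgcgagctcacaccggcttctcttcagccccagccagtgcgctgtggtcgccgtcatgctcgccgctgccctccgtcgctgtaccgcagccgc
Atp5a1 (chr18:73567287-73567586, plus strand): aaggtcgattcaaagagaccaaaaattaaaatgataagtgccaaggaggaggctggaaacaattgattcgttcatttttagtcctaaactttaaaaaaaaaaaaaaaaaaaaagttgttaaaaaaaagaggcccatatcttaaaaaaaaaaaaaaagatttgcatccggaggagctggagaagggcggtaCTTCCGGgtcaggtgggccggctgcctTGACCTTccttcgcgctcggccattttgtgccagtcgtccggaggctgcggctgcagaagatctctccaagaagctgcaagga
Ndufs1 holds 1 ETS match, Sdhd 2 ETS matches and 1 estrogen-related receptor match, Uqcrc2 2 ETS matches and 1 YY1 match, and Atp5a1 1 ETS and 1 estrogen-related receptor match. Cox5a holds none of these letters in the window. No match overlaps another in these 5 promoters. A promoter was found by gene ID for 71 of the 84 members and 63 of those tested. Among the latter, 12.7% held the NRF1 letters, 28.6% the ETS letters, 25.4% the YY1 letters and 15.9% the estrogen-related receptor letters. The shares over the 9962 tested genes with a promoter were 5.10%, 18.4%, 8.47% and 2.85%, and over all 27457 promoters 2.66%, 9.22%, 7.30% and 4.37%. Of the 20 members that rose and had a promoter, 3, 8, 6 and 4 held the respective letters, beside 5, 10, 10 and 6 of the 43 that did not rise. A match is a string of letters and not a measured binding site.

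Some members have possible copies elsewhere in the table, taken by symbol or product name with no comparison of sequences. The treatment of reads that fit several places is not stated in the submitters' notes used here. Cox7a2l2, a row with a single coding segment, had 146535 counts where Cox7a2, the common form of subunit 7a, had 2904. Likewise Ndufa10l1 had 49638 counts and Ndufa10 5874. Under symbols outside the rule, the copies of Ndufs5 and Ndufa3 had 36625 and 40103 counts, against 4597 and 3473 for the members themselves. The levels of these genes are therefore uncertain. Of 15 rows that carry a subunit's product name under a provisional symbol, 7 were tested and 0 rose by edgeR, with 4 higher at an unadjusted p under 0.05 and a median change of 0.47. With the counts of copies added to their member, 22 of 74 members rose.

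No subunit made inside the mitochondrion passed the test. Of the 13, 0 rose and 0 fell by edgeR, DESeq2 or limma-voom, 0 passed an unadjusted p under 0.05 by edgeR, and the median change was -0.16. COX1, the catalytic subunit of complex IV, was at 69722 ± 17557 CPM in controls and 58288 ± 19237 on cholate (SD, n = 5 rats each; change -0.26, SE 0.25, edgeR adjusted p = 0.550). ND6 and ND4, subunits of complex I, had changes of -0.40 and -0.28 with edgeR adjusted p of 0.258 and 0.603. Genes of the mitochondrial genome took 15.9% to 23.6% of all counts in controls and 11.7% to 18.7% on cholate, which overlapped. The difference between nuclear and mitochondrial subunits was not tested.

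Some subunits and associated proteins outside the rule also rose. Ndufab1, the acyl carrier protein in complex I, rose from 101 ± 12.7 to 186 ± 44.3 CPM (SD, n = 5 rats each; change 0.88, edgeR adjusted p = 0.00692). Cyc1, the cytochrome c1 of complex III, rose with a change of 0.78 (edgeR adjusted p = 0.0415), and Minos1, of the cristae junction complex, with 0.63 (edgeR adjusted p = 0.044). They were 3 of 6 tested genes of that list, and 0 fell, but 1 rose without control rats 1, 2, 5 or 6 or cholate rats 8 or 11 in turn. Cycs, cytochrome c itself, was at 16.4 ± 8.24 and 15.5 ± 5.43 CPM (SD, n = 5 rats each; edgeR adjusted p = 0.921).

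Other nuclear genes for mitochondrial proteins were also higher. In the exchange and import machinery, 9 of 26 rose and 0 fell, with a median of 0.51, and 2 met the criteria of the study. The 1 gene of this list with a change under 0 (-0.43) was lower at an unadjusted p under 0.05 by edgeR. Its cholate values lay wholly below its control values. DESeq2, limma-voom and the fit with the length offset, among others, each counted 1 gene of the list that fell. Slc25a4, the ADP/ATP carrier of heart and muscle, rose from 10.8 ± 1.82 to 36.3 ± 4.06 CPM (SD, n = 5 rats each; change 1.75, SE 0.16, edgeR adjusted p = 0.00035). Tomm40, the import channel of the outer membrane, rose from 55.4 ± 14.7 to 130 ± 32.7 CPM (SD, n = 5 rats each; change 1.23, SE 0.22, edgeR adjusted p = 0.00519). Of 71 mitochondrial ribosomal protein genes 19 rose and 0 fell, with a median of 0.48, and the 3 with the smallest adjusted p were Mrps22, Mrpl3 and Mrpl38, with changes of 0.73, 0.68 and 0.99. In the tricarboxylic acid cycle and pyruvate dehydrogenase list 7 of 25 rose and 0 fell, with a median of 0.37, among them Mdh2 (malate dehydrogenase, change 0.82) and Fh (fumarase, 0.62). Of 44 assembly factors 3 rose and 0 fell, with a median of 0.30. That share, 6.8%, was near the 6.48% of all genes tested that rose. The 3 assembly factors that rose were Coa7, Lrpprc, which stabilizes mitochondrial mRNAs, and Uqcc2. Without control rats 1, 2 or 6 these 4 lists counted 6 (exchange and import), 5 to 6 (ribosome), 2 to 3 (cycle) and 0 (assembly factors) genes that rose, and without control rat 9 they counted 15, 42, 7 and 4.

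Genes for the cytosolic ribosome, also short and abundant, had a median change of 0.29, of which 1 of 76 rose (Rps2, change 1.30) and 0 fell. The count was 0 without control rat 2, 5 without control rat 9 and 6 without control rat 9 and cholate rats 8 and 11 together. In these fits 3.38%, 8.41% and 13.6% of all genes rose. No regulator of mitochondrial gene expression passed the test: of 25 tested, 0 rose and 0 fell by edgeR, with 0 higher and 2 lower at an unadjusted p under 0.05 and a median of -0.02. The same threshold counted 14.4% of all genes tested as lower. DESeq2 counted 0 that rose and 1 that fell. In limma-voom with quality weights 2 of 25 rose and 5 fell, in a fit where 16.5% of all genes rose. Leaving out control rat 6 or cholate rat 11 gave 0 that rose and 1 that fell. With control rat 9 and cholate rats 8 and 11 left out, 3 of 26 tested rose and 4 fell. In that fit 13.6% of all genes rose, and of all genes that rose or fell 46.2% rose. Ppargc1a, the coactivator of mitochondrial biogenesis, was at 72.4 ± 32.5 and 35.9 ± 17.4 CPM (SD, n = 5 rats each; change -1.01, SE 0.42, edgeR adjusted p = 0.136). It was at 28.7 CPM in control rat 9 and at 15.2 and 22.0 in cholate rats 8 and 11, the lowest of each diet. Nrip1 and Perm1 had changes of -0.88 and -0.94 with edgeR adjusted p of 0.172 and 0.184.

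**Figure D5:**
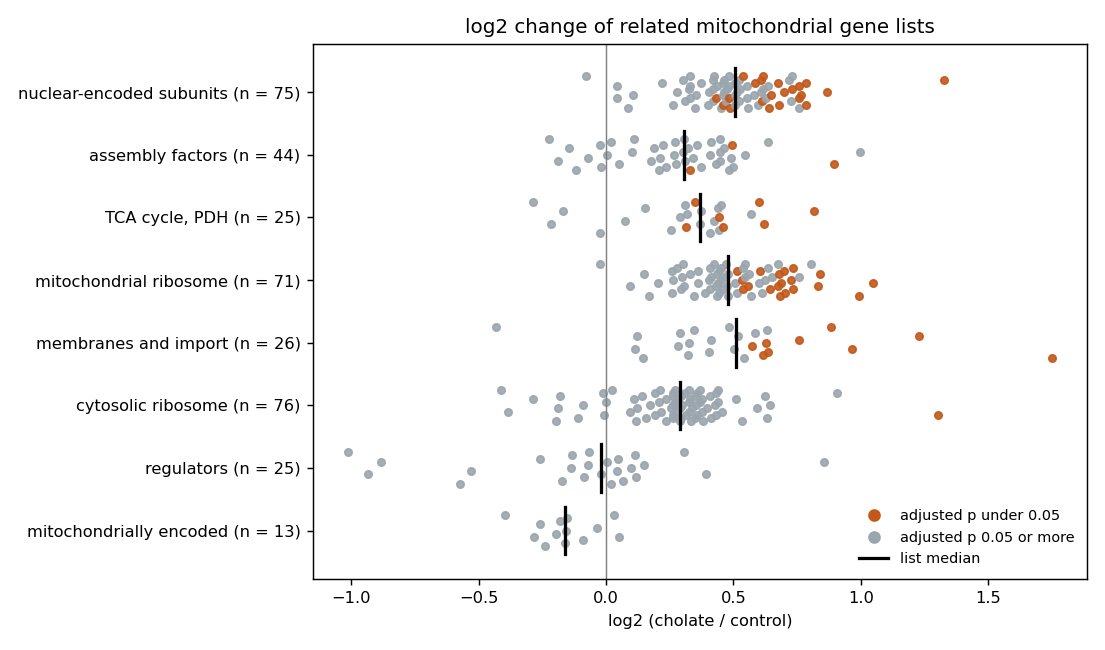
The horizontal axis gives the log2 change of each tested gene of the members and of 7 related lists, with 1 point a gene, orange where the adjusted p was under 0.05 and black lines at the medians. The lists of mitochondrial proteins from nuclear genes have medians of 0.30 to 0.51, and the regulators and the mitochondrially encoded genes lie around or under 0.

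Markers of colon epithelium were abundant in all libraries, with a summed level of 10 genes at 13169 to 18257 CPM in controls and 16147 to 23459 on cholate. Over all genes tested 6.48% rose and 7.28% fell, and each marker list holds few genes. Markers of differentiated colonocytes were also higher on cholate, where 6 of 12 rose and 1 fell. These 12 include the bile acid carrier genes Slc51a and Slc51b, so they need not report cell type alone on this diet. Their sum was 4925 to 6900 CPM in controls, with control rat 9 at 6424, and 8998 to 14984 on cholate. Among cholate rats it was highest in rat 8 and lowest in rat 11. The mean of the members was also highest in cholate rat 8 (1.01), while in cholate rat 11 (0.68) it lay above cholate rats 3, 4 and 7. Enteroendocrine markers summed to 216 to 286 CPM in controls and 299 to 549 on cholate, with 3 of 8 that rose. Crypt base and cycling markers summed to 613 to 747 CPM in controls and 702 to 1116 on cholate, with 3 of 10 that rose and 1 that fell. Of the tested markers, 2 of 3 for smooth muscle, 1 of 2 for fibroblasts and stroma and 1 of 4 for endothelium and blood fell, and 0 of these rose. Their sums were 118 to 208, 5.82 to 8.49 and 20.4 to 48.0 CPM in controls and 92.1 to 229.6, 4.28 to 7.88 and 10.3 to 24.0 CPM on cholate, with overlap in each, and Col1a2 was at 0 in all libraries. The smooth muscle sum had a mean of 167 CPM in controls and 166 CPM on cholate. Markers of striated muscle, a tissue rich in these complexes, summed to 0.575 to 5.33 CPM in controls and 2.50 to 13.7 on cholate, with Ckm, Myh2 and Myh7 at 0 in all libraries and 1 of 2 tested genes that rose. This list includes the members Cox6a2, Cox7a1 and Cox8b, so its sum is not independent of the members. Goblet markers summed to 7714 to 24433 CPM in controls and 7354 to 26618 on cholate, with 1 of 8 that rose and 0 that fell. The highest control was rat 9, the highest cholate rat was rat 11, and cholate rat 8 was at 17776. Tuft markers summed to 52.2 to 73.9 CPM in controls and 32.7 to 55.5 on cholate. Of the tested tuft and immune cell markers 0 rose and 0 fell. The part of these cell types in the change of the members was not tested.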

How the data were processed

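RNA of distal colon epithelial cells from 10 rats (5 on control chow, 5 on cholate chow) was sequenced as strand-specific poly(A) libraries, per the labels. Per the submitters' processing notes, bcl2fastq 1.8.4 and BWA-MEM 0.7.12-r1039 (an aligner without splice handling) were used with build rn6. Which program counted reads, with which strand setting and with what treatment of multiply mapped reads, is not stated in these sources. Members with copies, and the 11 tested members with an antisense partner, therefore have uncertain levels. Raw counts per gene, as deposited, were used for all tests, beside a normalized signal that the authors made with edgeR 3.16.2 and TMM scaling and that served here only as a check. The deposited lengths and coordinates are in bases, and the effective length equals the coding length in 100% of genes.

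In R 4.3.3, edgeR 4.0.16 removed low genes (filterByExpr, grouped by diet), set TMM factors and ran its robust quasi-likelihood F test for diet, with Benjamini-Hochberg adjustment over 12385 genes. The SE is the absolute log2 change over the square root of F. Alternatives used DESeq2 1.42.0, limma 3.58.1, other scalings and filters, a length offset, summed copies, and rats left out. The method was tested on simulated counts drawn independently for each library, with no trend by gene length. That test thus does not cover the length trend seen in these libraries. The limit for a gene with 0 counts is 3 counts a library (0.0662 to 0.209 CPM), which covers counting error only.

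Members, lists and thresholds were chosen with earlier results of these data known. The text names the 4 members with the smallest adjusted p and the lowest change of each complex, isoform pairs, all Sdh genes, untested members and the leading genes of related lists. Other members were named after their values were seen. Single values of 2 genes that the counts include are not reported here. No list was tested as a set, so its counts and medians are descriptions. No paired analysis was possible because the diets share no rat number.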

Additional observations from a re-analysis of the deposited data

Results flagged for a closer look

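In a check for single rats far from the others of their diet, 2 of the 74 groups of 5 values stood out, where chance gives about 5%. These groups did not cover all 75 tested members. Ndufb8 was at 342.2 CPM in control rat 9, against 304.5 CPM in the nearest control. Sdhc was at 188.8 CPM in control rat 9, against 136.4 CPM in the nearest control. Members outside the check also had single values far from the others. Ndufa2 was at 48.9 CPM in control rat 9, against 36.0 CPM in the nearest control. Uqcr10 was at 592.9 CPM in cholate rat 8, against 393.5 CPM in the nearest cholate rat.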

How the results depend on the processing

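The number of members that met the criteria of the study was 0 in all fits except DESeq2, where it was 1. No fit counted a member that fell. The number that rose was 22, and it was 34 in DESeq2, 49 in limma-voom with quality weights (where 16.5% of all genes rose, against 6.48% in the edgeR fit), 35 without the 3 libraries that stood apart (control rat 9, cholate rats 8 and 11; chosen after seeing the data) and 5 to 32 with 1 rat left out. The median change of all members stayed between 0.30 and 0.58 in every fit. That of similar genes, 0.30, was 0.19 with quality weights, 0.13 with the length offset, 0.17 without the 3 libraries and 0.18 to 0.35 with 1 rat left out. Among single members, the changes near 0 turned in sign. Ndufv3 was at -0.047 with library size alone, -0.072 in limma-voom, -0.24 with quality weights, -0.27 without the 3 libraries and -0.18 to 0.18 with 1 rat left out. Cox7a2l was at -0.026 with library size alone, -0.034 with quality weights, -0.13 with the length offset, -0.029 without the 3 libraries and -0.020 to 0.094 with 1 rat left out. Cox7a2 was at -0.13 with the length offset, -0.037 without the 3 libraries and -0.056 to 0.19 with 1 rat left out. With 1 rat left out, Atp5s ran from -0.26 to 0.052 and Cox4i2 from -0.015 to 0.48. The median of the regulators was 0.0075 with DESeq2 size factors, 0.024 with quality weights, 0.080 with the length offset and -0.11 to 0.020 with 1 rat left out. The cause was not tested. Summing copies and leaving out mitochondrially encoded genes were also chosen after seeing the data, and 22 of 74 and 23 of 75 members rose. No paired analysis was possible because the diets share no rat number.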
